A study of Mus musculus with 4 samples.

Results

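The embryonic and adult globin genes of the mouse were examined in embryos labelled as null for nucleoredoxin and in wild-type embryos. The members were Hbb-y, Hbb-bh1 and Hba-x, which are embryonic globins, and Hba-a1, Hbb-b1 and Hbb-b2, which are adult globins. Every probe outside the control types that carried 1 of these 6 gene names on the arrays was taken, which gave 10 of 41174 gene probes. Hbb-b1 had 4 probes, Hbb-bh1 and Hba-a1 had 2 each, and Hbb-y and Hba-x had 1 each. No probe carried the name Hbb-b2, so Hbb-b2 was not analysed here. Of the 10 probes, 8 passed the filters on signal and on spot quality, and they represented 5 of 17157 genes tested. Those 5 genes are the measured globin genes below. The 2 probes left out, for Hba-a1 and Hbb-b1, had a spot marked as an outlier on at least 1 array, and their values are given separately.

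The tested embryos carried the genotype NRX -/-, written here as Nxn-null, at the embryonic stages E9.5 and E11.5, named by days of gestation. The embryos they were set against carried NRX +/+, written here as wild type, at the same stages. Both genotypes were C57BL/6J mice, and nothing was given to them per the labels. Nucleoredoxin, encoded by Nxn, is a thioredoxin-related protein that binds Dishevelled, and the title of the series names the maintenance of Wnt and beta-catenin signalling. Each of 4 two-colour Agilent arrays set Nxn-null RNA in one dye against wild-type RNA of that stage in the other dye, with the dyes exchanged between the 2 arrays of a stage. Nxn-null RNA was labelled with Cy5 on replicate 1 and with Cy3 on replicate 2. The labels name neither the number of embryos behind an RNA nor separate extracts for the arrays of a stage. All p-values therefore describe the spread among these arrays, which may be technical.

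Hemoglobin is a tetramer of alpha-like and beta-like globin chains, each of which holds a heme group that binds oxygen. In the mouse, the first red cells form in the yolk sac and carry embryonic chains, whose genes are Hba-x (zeta), Hbb-y (epsilon-y) and Hbb-bh1 (beta-h1), together with adult alpha chains. Red cells of the later, definitive wave mature in the fetal liver and carry adult alpha and adult beta chains. RNA of whole embryos was measured, so fewer red cells and less globin RNA per red cell cannot be told apart.

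The alpha-like genes lie on chromosome 11 and the beta-like genes on chromosome 7. The 250 bases before the transcription start are printed here for the members found in the RefSeq promoter table (build GRCm38.p6), because these genes lay together on the lower side at E11.5. They run 5′ to 3′ on the strand of the gene, with capitals at every CACCC motif, every CCAAT motif and every GATAA motif on either strand. CACCC is the core of the site bound by Klf1, a red cell activator, CCAAT is a common promoter element, and GATAA is part of the site bound by Gata1. Hbb-y lies at chr7:103853208-103853457 (minus strand), Hba-x at chr11:32276350-32276599 (plus strand) and Hba-a1 at chr11:32283422-32283671 (plus strand). The transcript behind the probes named Hbb-b1 is assigned in the RefSeq table to Hbb-bt, a gene of the adult beta locus in C57BL/6J, at chr7:103813924-103814173 (minus strand).
Hbb-y: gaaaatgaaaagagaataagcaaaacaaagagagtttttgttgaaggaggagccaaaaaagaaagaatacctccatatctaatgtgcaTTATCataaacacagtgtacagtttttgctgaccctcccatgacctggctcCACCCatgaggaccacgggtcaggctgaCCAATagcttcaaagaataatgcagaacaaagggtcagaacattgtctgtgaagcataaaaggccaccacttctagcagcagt
Hba-x: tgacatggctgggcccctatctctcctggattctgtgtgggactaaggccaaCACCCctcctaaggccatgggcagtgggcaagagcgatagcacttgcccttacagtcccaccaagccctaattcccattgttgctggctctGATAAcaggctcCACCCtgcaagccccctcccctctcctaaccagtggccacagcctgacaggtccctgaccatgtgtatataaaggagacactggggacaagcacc
Hba-a1: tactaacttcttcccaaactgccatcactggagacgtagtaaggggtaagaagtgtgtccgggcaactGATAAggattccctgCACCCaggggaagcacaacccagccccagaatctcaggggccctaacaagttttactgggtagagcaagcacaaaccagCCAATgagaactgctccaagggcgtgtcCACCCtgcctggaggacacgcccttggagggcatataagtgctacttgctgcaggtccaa
Hbb-bt: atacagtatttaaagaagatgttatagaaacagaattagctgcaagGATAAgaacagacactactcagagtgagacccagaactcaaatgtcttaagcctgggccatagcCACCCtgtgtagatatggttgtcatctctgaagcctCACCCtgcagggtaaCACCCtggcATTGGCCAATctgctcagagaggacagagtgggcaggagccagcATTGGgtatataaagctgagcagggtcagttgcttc

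All 4 windows held CACCC, once in Hbb-y, 2 times in Hba-x and in Hba-a1, and 3 times in Hbb-bt. The CACCC nearest the start ended 107 bases before it in Hbb-y, 91 in Hba-x, 56 in Hba-a1 and 85 in Hbb-bt. CCAAT was found in Hbb-y, Hba-a1 and Hbb-bt and not in Hba-x, and each window held 1 GATAA. In Hbb-bt the run of capitals ATTGGCCAAT joins 2 adjacent CCAAT matches, 1 on each strand. Among 32851 promoters of the same length, 52.0% held CACCC, 33.8% held CCAAT and 22.6% held GATAA. These matches describe letters in the window and do not show binding.

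An array held 43379 gene spots. The proportion of gene probes called well above background lay between 51.5% and 69.7% in the Nxn-null channels and between 48.2% and 70.3% in the wild-type channels, and it was higher in the Cy5 channel of each array. Over all kept genes, log2 ratios of the paired arrays with exchanged dyes correlated with r = 0.48 for the E9.5 pair and 0.26 for the E11.5 pair, which is a description across genes that share arrays and dyes. Nxn itself was lower in Nxn-null RNA on every array, at 44.8% and 50.6% of the wild-type level by its 2 probes. Where these probes lie relative to the deleted part of the gene was not examined. All 10 globin probes were well above background in all 8 channels and none was saturated. The arrays were scanned at an extended range, in which very bright spots are read at low gain and scaled up. This held for all 4 channels of each stage for Hbb-y, Hbb-bh1, Hba-x and Hba-a1. For the brightest usable Hbb-b1 probe it held for 0 of 4 channels at E9.5 and 4 of 4 at E11.5.

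At E11.5 all 5 measured globin genes were lower in Nxn-null than in wild-type embryos, between 2.03-fold and 2.75-fold. At E9.5 the embryonic genes and Hba-a1 were lower, between 1.27-fold and 2.21-fold, and Hbb-b1 stood at 104.4% of the wild-type level. Each ratio is given as log2, Nxn-null divided by wild type, after normexp background correction and loess within each array. The ratio at each stage was tested with limma over the 4 arrays with a term for dye orientation, and p-values were adjusted over 17157 genes by the Benjamini-Hochberg method at 0.05. At E11.5, 5 of 5 measured globin genes passed as lower, against 5.64% of all genes tested. At E9.5, 4 of 5 passed as lower, against 14.8% of all genes. The 5 genes had a median ratio of -0.60 at E9.5, against -0.00075 over all genes tested, and of -1.25 at E11.5, against 0.0071. At least 2-fold lower were 5 of 5 at E11.5, against 0.152% of all genes, and 1 of 5 at E9.5, against 0.752%. With median centring in place of loess, 2 of 5 (Hbb-y and Hbb-b1) were at least 2-fold lower at E11.5, and with the mean of all kept probes 4 of 5 were, with Hbb-b1 at -0.96. The limma test compares the RNAs hybridised and rests on 1 residual degree of freedom. Its SEs draw on the spread of all genes, so its p-values do not measure the array spread of a single gene. For Hbb-bh1 the SE was 0.062 at each stage, beside array SDs of 0.41 at E9.5 and 0.44 at E11.5. Without the dye term, 1 of 5 globin genes passed at E9.5 (Hbb-y) and 1 of 5 at E11.5 (Hbb-b1), while the ratios were the same.

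**Figure D1:**
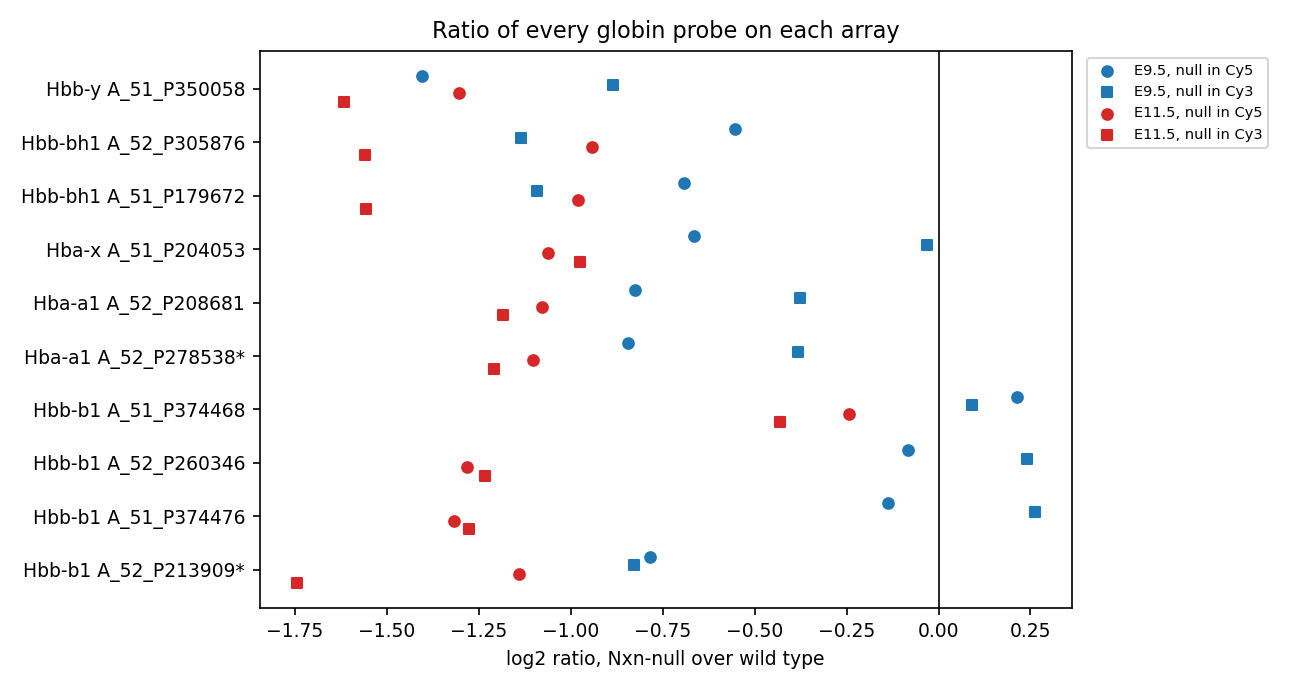
Log2 ratio of Nxn-null over wild type (x axis) for each of the 10 globin probes (rows) on each of 4 arrays (blue, E9.5; red, E11.5; circles, Nxn-null in Cy5; squares, Nxn-null in Cy3). Asterisks mark the 2 probes left out for an outlier mark. All red points lie below 0, and the blue points of 3 Hbb-b1 probes lie around 0.

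Among the embryonic beta-like genes, Hbb-y encodes the epsilon-y chain. Its log2 ratio was -1.41 and -0.88 on the E9.5 arrays and -1.31 and -1.62 on the E11.5 arrays. Every array showed less Hbb-y in Nxn-null embryos, and the values of the stages overlap. The mean was -1.15 ± 0.37 at E9.5 (SD, n = 2 arrays; adjusted p = 6.1e-09, limma), 45.2% of the wild-type level. At E11.5 it was -1.46 ± 0.22 (SD, n = 2 arrays; adjusted p = 6.5e-10, limma), 36.3% of the wild-type level. Hbb-y ranked 95th at E9.5 and 10th at E11.5 from the lowest of 17157 ratios. It was the only measured globin gene at least 2-fold lower at both stages, the threshold that the series' design text sets for its signature, which 0.0233% of all genes tested passed.

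Hbb-bh1 encodes the beta-h1 chain. Its brighter probe gave -0.55 and -1.13 on the E9.5 arrays and -0.94 and -1.56 on the E11.5 arrays. Its other probe gave -0.69 and -1.09 on the E9.5 arrays and -0.98 and -1.56 on the E11.5 arrays. Both probes were lower in Nxn-null embryos on every array, and at both stages the array with Nxn-null RNA in Cy3 gave the lower ratio. The brighter probe averaged -0.84 ± 0.41 at E9.5 and -1.25 ± 0.44 at E11.5 (SD, n = 2 arrays each), with adjusted p = 1.8e-09 and 1.8e-11 in the limma fit. These ratios correspond to 55.7% and 42.0% of the wild-type level. The part of this spread common to both stages entered the dye term. Without that term the ratio passed at neither stage (adjusted p = 0.119 at E9.5, 0.121 at E11.5).

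Hba-x encodes the zeta chain, the embryonic alpha-like globin. Its ratio was -0.66 and -0.03 on the E9.5 arrays and -1.06 and -0.97 on the E11.5 arrays. The E9.5 arrays disagreed: replicate 1 was clearly below 0 and replicate 2 was close to it. The mean at E9.5 was -0.35 ± 0.45 (SD, n = 2 arrays; adjusted p = 0.0018, limma), 78.6% of the wild-type level. Without E9.5 replicate 1 the value was -0.03 (adjusted p = 0.953), and without E9.5 replicate 2 it was -0.66 (adjusted p = 0.0845). At E11.5 the mean was -1.02 ± 0.063 (SD, n = 2 arrays; adjusted p = 7.3e-09, limma), 49.3% of the wild-type level, and the arrays lay close together.

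Of the adult genes, Hba-a1 encodes the adult alpha chain, which pairs with embryonic and with adult beta-like chains. Its usable probe gave -0.83 and -0.38 on the E9.5 arrays and -1.08 and -1.19 on the E11.5 arrays. The probe left out gave -0.85 and -0.38 on the E9.5 arrays and -1.10 and -1.21 on the E11.5 arrays. The probes thus gave nearly the same ratio on every array. The usable probe averaged -0.60 ± 0.32 at E9.5 and -1.13 ± 0.076 at E11.5 (SD, n = 2 arrays each; adjusted p = 4.6e-06 and 1.9e-09, limma), or 65.9% and 45.6% of the wild-type level. Hba-a1 and Hba-a2 are near-identical copies, so signal at these probes cannot be assigned to one of them.

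Hbb-b1 encodes an adult beta chain. Its brightest usable probe gave -0.14 and 0.26 on the E9.5 arrays and -1.32 and -1.28 on the E11.5 arrays. Nxn-null embryos therefore lay on both sides of wild type at E9.5 and below it on both arrays at E11.5, with no overlap between stages. The mean was 0.06 ± 0.28 at E9.5 (SD, n = 2 arrays; adjusted p = 0.555, limma). At E11.5 it was -1.30 ± 0.029 (SD, n = 2 arrays; adjusted p = 4.3e-11, limma), 40.7% of the wild-type level.

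The other Hbb-b1 probes differed from this one in part. A_52_P260346 followed it, with -0.08 and 0.24 on the E9.5 arrays and -1.28 and -1.23 on the E11.5 arrays. A_51_P374468, the dimmest, gave 0.21 and 0.09 on the E9.5 arrays and -0.24 and -0.43 on the E11.5 arrays, so its mean at E11.5 was -0.34, or 79.2% of the wild-type level. With every kept probe tested as a row of its own, this probe passed as lower at E11.5 (adjusted p = 0.0012, limma). A_52_P213909, which was left out for an outlier mark on 1 array, gave -0.78 and -0.83 on the E9.5 arrays and -1.14 and -1.75 on the E11.5 arrays. All 4 probes were thus lower in Nxn-null embryos at E11.5, and at E9.5 the probe left out alone was lower on both arrays. Probes named Hbb-b1 can also bind RNA of closely related beta genes, so the adult beta genes were not resolved from each other.

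Over the classes, the 3 embryonic genes had a mean ratio of -0.87 and -0.68 on the E9.5 arrays, against -0.48 and -0.06 for the 2 measured adult genes. On the E11.5 arrays the means were -1.10 and -1.38 for the embryonic genes and -1.20 and -1.23 for the adult genes. The embryonic genes thus had the lower ratio on both E9.5 arrays, and at E11.5 the order differed between the arrays. The adult mean at E9.5 joins Hba-a1, which was lower, with Hbb-b1, which was not, and the difference between classes was not tested.

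**Figure D2:**
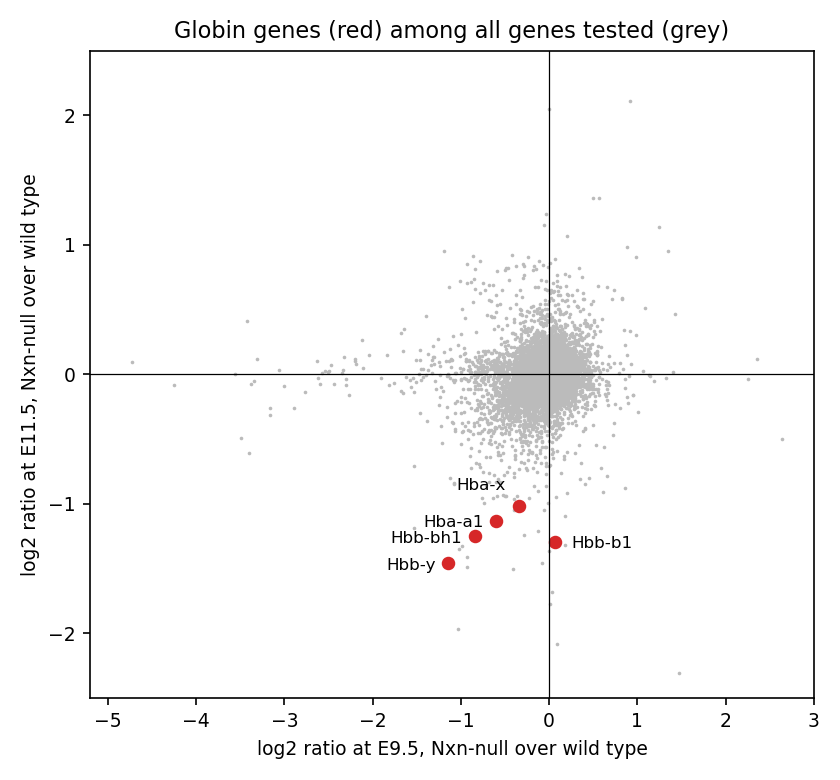
Log2 ratio of Nxn-null over wild type at E9.5 (x axis) and at E11.5 (y axis), each the mean of 2 arrays, for 17157 genes tested (grey) and the 5 measured globin genes (red). The axes leave out 3 genes. The globin genes lie between -1.02 and -1.46 on the y axis, and Hbb-b1 lies near 0 on the x axis.

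The ratio was lower at E11.5 than at E9.5 for all 5 measured genes, and the difference was tested as a contrast in the same limma fit. It passed for 4 of 5 genes, against 5.22% of all genes tested that passed in this direction. Hbb-b1 differed by -1.36 (SE 0.097, adjusted p = 1.6e-09), Hba-x by -0.67 (SE 0.11, adjusted p = 0.00013), Hba-a1 by -0.53 (SE 0.11, adjusted p = 0.0016) and Hbb-bh1 by -0.41 (SE 0.088, adjusted p = 0.0028). Hbb-y differed by -0.32 (SE 0.13, adjusted p = 0.120), which does not show that its ratios were equal. For Hbb-b1 the size depends on the probe. The probe that gave -1.36 was read at low gain in 0 of 4 channels at E9.5 and 4 of 4 at E11.5, so its gain changed with stage. A_52_P260346, read at low gain in 0 channels at E9.5 and 3 at E11.5, gave -1.34. A_51_P374468, read at low gain in no channel, gave -0.49 (adjusted p = 0.00079, limma on every kept probe). With marked probes kept, A_52_P213909 stood for the gene, and the difference was -0.64 (adjusted p = 0.00025, limma). The part of gain in these differences was not tested. The mean of all kept probes gave -1.06. Hbb-b1, by its brightest usable probe, had the 17th lowest difference of 17157 genes. Without the dye term Hbb-b1 alone passed, and without E11.5 replicate 1 no globin gene did (adjusted p = 0.0517 for Hbb-b1).

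The effect shared by both stages was tested with limma on the 2 stage means. Of 17157 genes 0 passed (0%), and 1239 had an unadjusted p under 0.05. The shared ratio was -1.30 (SE 0.10, adjusted p = 0.396) for Hbb-y, -1.05 (SE 0.12, adjusted p = 0.461) for Hbb-bh1 and -0.87 (SE 0.15, adjusted p = 0.537) for Hba-a1. It was -0.68 (SE 0.18, adjusted p = 0.646) for Hba-x and -0.62 (SE 0.35, adjusted p = 0.747) for Hbb-b1. The adjusted p of 0.396 was also the lowest of all genes. By sign alone, 4 of 5 globin genes were lower in Nxn-null embryos on all 4 arrays, against 10.5% of all genes tested, and Hbb-b1 was lower on 3. With the 4 arrays taken as separate measurements, Hbb-y passed (adjusted p = 0.0300).

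Levels in each genotype were followed from the single channels, after normalization between arrays, as log2 intensity of 1 probe. They can be compared between conditions for a gene and not between genes. Of the 5 globin genes, 3 passed a limma test of E11.5 over E9.5 across both genotypes, all as higher, against 21% of all genes tested. That test takes the 2 genotypes as replicates and leaves out what the channels of an array share, so its p-values are too small.

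Among the 5 genes the level of Hbb-b1 rose most with stage, by 2.40 in Nxn-null and 3.76 in wild-type embryos on the log2 scale, or 5.29-fold and 13.6-fold. A_52_P260346 gave nearly the same, 5.19-fold in Nxn-null and 13.1-fold in wild-type embryos. The gap between genotypes was smaller by the remaining probes. A_51_P374468, read at low gain at neither stage, rose 10.3-fold in Nxn-null and 14.5-fold in wild-type embryos. The probe left out, A_52_P213909, rose 8.40-fold and 13.1-fold. By the brightest usable probe, the level of Hbb-b1 was 13.14 and 13.26 on the E9.5 arrays and 15.66 and 15.55 on the E11.5 arrays in Nxn-null embryos. In wild-type embryos it was 13.28 and 13.00 on the E9.5 arrays and 16.98 and 16.82 on the E11.5 arrays. By this probe the genotypes overlap at E9.5 and are separate at E11.5, and both E11.5 groups lie above both E9.5 groups. The mean stage change was 3.08 (SE 0.35, adjusted p = 0.010, limma), rank 17151 of 17157 from the lowest.

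Hba-a1 had a level of 15.29 and 15.30 on the E9.5 arrays and 16.28 and 15.97 on the E11.5 arrays in Nxn-null embryos, against 16.11 and 15.68 on the E9.5 arrays and 17.36 and 17.16 on the E11.5 arrays in wild-type embryos. In order, wild type at E11.5 was highest and Nxn-null at E9.5 lowest, and the other two groups overlap. Its stage change averaged 1.10 (SE 0.15, adjusted p = 0.0129, limma).

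Hbb-y had a level of 15.83 and 15.91 on the E9.5 arrays and 16.79 and 16.27 on the E11.5 arrays in Nxn-null embryos, against 17.24 and 16.80 on the E9.5 arrays and 18.09 and 17.89 on the E11.5 arrays in wild-type embryos. Nxn-null embryos at E11.5 thus lay below the wild-type level of E9.5, by little on the nearest arrays. Its stage change averaged 0.81 (SE 0.10, adjusted p = 0.0111, limma).

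Hba-x had a level of 15.75 and 15.73 on the E9.5 arrays and 16.14 and 16.02 on the E11.5 arrays in Nxn-null embryos, against 16.42 and 15.76 on the E9.5 arrays and 17.21 and 16.99 on the E11.5 arrays in wild-type embryos. The Nxn-null E11.5 and wild-type E9.5 values overlap. Its stage change averaged 0.67 (SE 0.18) and lay just outside the threshold (adjusted p = 0.0515, limma). It passed in 6 of 11 alternatives, among them each fit with 1 array left out (adjusted p between 0.0253 and 0.0399), and 4 of 5 globin genes then passed as higher.

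Hbb-bh1 had a level of 17.10 and 16.61 on the E9.5 arrays and 17.03 and 16.42 on the E11.5 arrays in Nxn-null embryos, against 17.65 and 17.75 on the E9.5 arrays and 17.98 and 17.98 on the E11.5 arrays in wild-type embryos. The Nxn-null stages overlap, and both lie below both wild-type groups. Its stage change averaged 0.07 (SE 0.12, adjusted p = 0.643, limma) and took the opposite sign under other scalings of the channels.

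**Figure D3:**
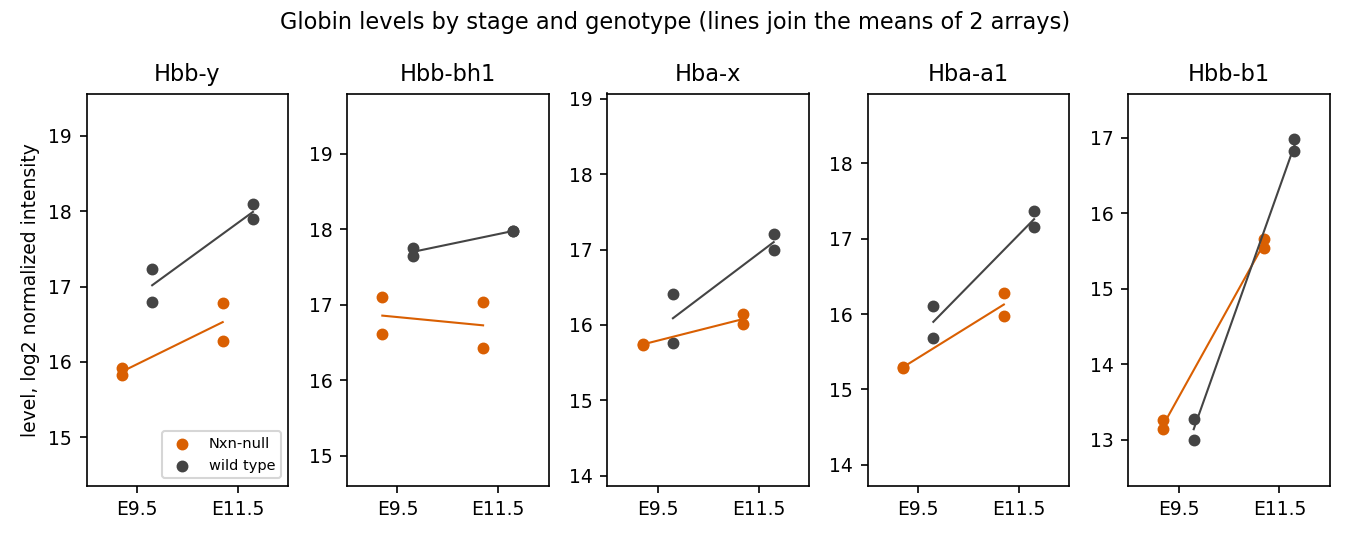
Level of the 5 measured globin genes (y axis, log2 normalized intensity of 1 probe) at E9.5 and E11.5 in Nxn-null (orange, left of each pair) and wild-type embryos (grey). Points are arrays and lines join the means of 2 arrays. The y axes span the same range around different centres, and the genotypes overlap for Hbb-b1 at E9.5.

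Other genes of red cells were read from lists of transcription factors, of heme and iron genes and of membrane and enzyme genes. Paired values for these genes are means of 2 arrays, E9.5 first and E11.5 after it. Of 52 such genes tested of 53 listed, 26 passed as lower and 3 as higher in Nxn-null embryos at E9.5, and 32 as lower and 1 as higher at E11.5. Their median ratio was -0.18 in the earlier and -0.30 in the later embryos. On all 4 arrays 28 of the 52 were lower, against 10.5% of all genes tested. Without the dye term 9 of the 52 passed as lower at E9.5, and 3 did so at E11.5. Of all 17157 genes, 460 then passed in either direction at E9.5 and 28 at E11.5. By comparison, 14.8% of all genes passed as lower and 9.88% as higher at E9.5, and 5.64% as lower and 3.67% as higher at E11.5.

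Of 17 erythroid transcription factors, 5 passed as lower and 3 as higher at E9.5 (median 0.02), and 5 as lower and 1 as higher at E11.5 (median -0.06). Klf1, an activator of the adult beta gene and of many red cell genes, had ratios of -0.95 and -0.91 on the E9.5 arrays and -1.53 and -1.46 on the E11.5 arrays. Its arrays lay close together at each stage, and it fell further at E11.5 than at E9.5, by 0.56 (adjusted p = 0.00011, limma). Nfe2, which acts on the globin control region, averaged -0.53 and -0.46 and passed at both stages. Gfi1b, a repressor needed for red cell maturation, averaged -0.58 and -0.25, and Zfpm1, the partner of Gata1, averaged -0.42 and -0.33. Each passed at both stages. Klf1, Nfe2, Gfi1b and Zfpm1 were named as the lowest of the list by mean ratio, which favours passing as lower. Gata1 itself averaged -0.10 and -0.15 and passed at neither stage. Myb, a gene of early progenitors, was the highest of the list and passed as higher at both stages, with 0.18 and 0.28.

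Of 13 heme and iron genes tested, 8 passed as lower at E9.5 (median -0.22) and 10 at E11.5 (median -0.34), with 0 higher at either stage. Alas2, the red cell enzyme of the first step of heme synthesis, averaged -0.60 and -0.84. Slc25a37 (mitoferrin 1), which brings iron into mitochondria, averaged -0.40 and -0.97. Fech, which inserts iron into heme, averaged -0.58 and -0.60, and Cpox, an enzyme of the same pathway, averaged -0.63 and -0.44. These 4 passed as lower at both stages, but they were named as the lowest of the list by mean ratio, which favours this. Slc25a38, a mitochondrial glycine carrier, had the highest mean of the list, and passed at neither stage, with 0.13 and -0.12.

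Of 22 membrane and enzyme genes, 13 passed as lower at E9.5 (median -0.29) and 17 at E11.5 (median -0.51), with 0 higher. Kel, a blood group protein, averaged -0.74 and -0.995. Rhd, of the Rh complex, averaged -0.68 and -0.83. Slc4a1, the band 3 anion exchanger, averaged -0.49 and -0.94, and Ank1, which anchors it to the membrane skeleton, averaged -0.55 and -0.66. All 4 passed as lower at both stages, but they were named as the lowest of the list by mean ratio, which favours this. Bpgm, the enzyme that makes the allosteric effector of hemoglobin, had the highest mean, and passed at neither stage, with 0.15 and -0.14.

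Ahsp binds free alpha chains as a chaperone. Its ratio was -0.62 and -0.52 on the E9.5 arrays and -0.43 and -0.65 on the E11.5 arrays, and it passed as lower at both stages (adjusted p = 1.6e-06 and 9.1e-06, limma). Hbq1b and Hbq1a, near-identical theta globin genes beside the alpha genes, averaged -0.24 and -0.18 on the E9.5 arrays and -0.43 and -0.32 on the E11.5 arrays, and both passed as lower at both stages. Mb, the muscle globin, averaged -0.18 at E9.5 (passed as lower) and -0.04 at E11.5 (not passed). Ngb, the globin of neurons, averaged 0.28 at E9.5 (passed as higher) and -0.20 at E11.5 (not passed). Cygb, a globin of fibroblast-like cells, averaged 0.15 and 0.17 and passed at neither stage. Of the 8 genes listed with the chaperone, 6 were tested.

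**Figure D4:**
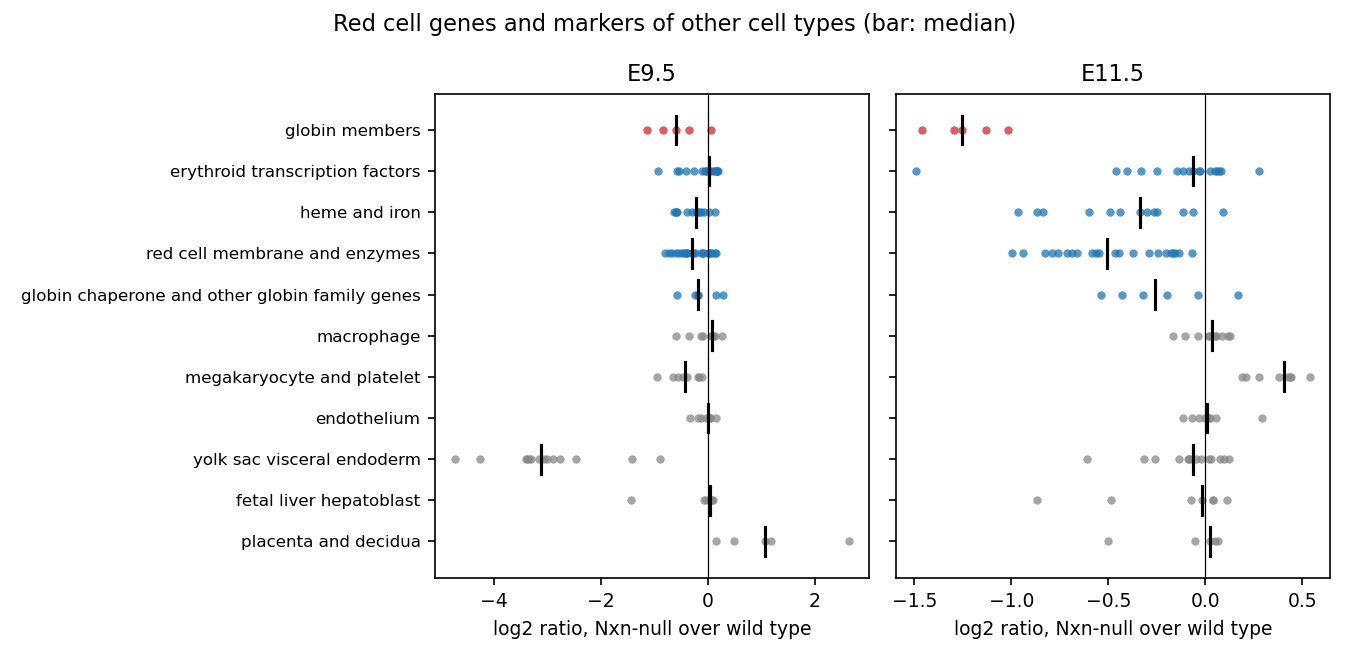
Log2 ratio of Nxn-null over wild type at E9.5 (left) and E11.5 (right) for the 5 measured globin genes (red), red cell gene lists (blue) and markers of other cell types (grey). Points are genes, black bars are medians, and the x axes of the panels differ. Yolk sac endoderm markers have a median of -3.11 at E9.5 and -0.06 at E11.5.

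Markers of some other cell types also moved with genotype at E9.5, where 14.8% of all genes passed as lower and 9.88% as higher. At E11.5 these shares were 5.64% and 3.67%. All 14 markers of yolk sac visceral endoderm passed as lower in Nxn-null embryos at E9.5, with a median ratio of -3.11. Their summed intensity lay between 16539 and 20128 in Nxn-null and between 176545 and 177387 in wild-type channels. Afp, the main serum protein of that tissue, had a ratio of -3.37. S100g and Apoa4 met the signal filter only through the wild-type E9.5 channels, so the filter favoured this direction for them. At E11.5, 3 of the 14 passed as lower, the median was -0.06, and the sums lay between 80643 and 81501 in Nxn-null and between 80805 and 88557 in wild-type channels. The yolk sac is where embryonic red cells form, and the part of this difference in the globin ratios at E9.5 was not tested. At E11.5 the globin ratios were between -1.02 and -1.46 beside a yolk sac median of -0.06. At that stage S100g and Apoa4 were well above background in no channel. In wild-type embryos Cubn, Amn and S100g changed by -4.36, -4.00 and -4.94 log2 from E9.5. The E11.5 median is therefore a weak measure of yolk sac content, whose part in the globin ratios at E11.5 was not tested.

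Placental and decidual markers ran the other way at E9.5, with 4 of 5 tested of 8 listed passing as higher (median 1.06) and summed intensities of 2684 to 3075 in Nxn-null against 1442 to 1461 in wild-type channels. Prl8a2 and Prl4a1 were well above background in no wild-type channel at E9.5. They met the signal filter only through the Nxn-null channels of that stage, so the filter favoured this direction for them. At E11.5, 1 of 5 passed as lower (median 0.02), with sums of 1048 to 1112 in Nxn-null and 1085 to 1125 in wild-type channels. That gene, Prl8a2, was then well above background in 1 wild-type channel and in no Nxn-null channel, so its ratio rests on values near background. Of 7 fetal liver markers tested of 8 listed, 1 passed as lower at E9.5, and Alb (-0.48) and Ahsg (-0.86) did so at E11.5, while Hnf4a, a regulator that defines hepatoblasts, was at 0.11 and did not pass. Their summed intensity at E11.5 lay between 51587 and 53181 in Nxn-null and between 55226 and 56770 in wild-type channels, and at E9.5 between 38541 and 40972 and between 39767 and 40576. In wild-type embryos Alb and Ahsg rose by 4.35 and 4.01 log2 from E9.5, while Hnf4a changed by -0.17. The sum rose far less than Alb and Ahsg, so it is a weak measure of fetal liver content. The part of that content in the globin ratios at E11.5 was not tested.

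Megakaryocytes share a progenitor with red cells, and their 8 markers changed direction between stages. At E9.5, 6 passed as lower (median -0.44), with sums of 3672 to 3686 in Nxn-null and 5578 to 6532 in wild-type channels. At E11.5, 7 passed as higher (median 0.40), with sums of 11970 to 13015 in Nxn-null and 8728 to 9859 in wild-type channels. Of 10 macrophage markers, 2 passed as lower and 1 as higher at E9.5, which is near the shares over all genes, and 0 passed in either direction at E11.5 (median 0.03), where sums lay between 7361 and 7694 in Nxn-null and between 6985 and 7392 in wild-type channels. At E9.5 these sums were 2424 to 2486 and 2582 to 2734. Of 8 endothelial markers, 2 passed as lower at E9.5 and 1 as higher at E11.5, with medians of -0.0034 and 0.0079. Their sums were 13427 to 13529 in Nxn-null and 14076 to 15678 in wild-type channels at E9.5, and 12174 to 12712 and 12110 to 12669 at E11.5. None of the tested markers was below background in every group. At single stages some were: S100g, Apoa4, Prl7a1 and Prl4a1 were well above background in no channel at E11.5, and Apoh in none at E9.5. Ratios of these markers at those stages rest on values near background. Their part in the globin ratios was not tested.

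The genes whose 4 array ratios lay closest to the mean of the 3 embryonic globin genes were found by root mean square distance over the 4 log2 ratios. Nxn itself was the closest at 0.17, followed by Ocel1 at 0.21, Klf1 at 0.25 and Kel at 0.27. The next were 4833420G17Rik at 0.29, Tubd1 at 0.30, the transcript AK089867 at 0.31 and Slc4a1 at 0.33. By the same measure Hba-a1 lay at 0.18 and Hbb-b1 at 0.61. The embryonic genes themselves lay at 0.30 (Hbb-bh1), 0.32 (Hbb-y) and 0.40 (Hba-x), so several other genes were closer to their mean than they were. Klf1, Kel and Slc4a1 are red cell genes, Tubd1 encodes delta-tubulin, and for the rest no role is given here. Distance over 4 arrays is a description, and it rests on a mean of genes that share dyes and arrays.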

How the data were processed

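RNA of Nxn-null and wild-type embryos at E9.5 and E11.5 was hybridised to 4 two-colour arrays. The authors deposited scanner files that hold, per the file headers, spot intensity and local background in each channel on a linear scale, as written by Agilent Feature Extraction 9.1.3.1 (9.5.3.1 per the submitters' processing notes). The deposited marks per spot for outliers, saturation, low-gain reading and signal above background were used as filters or descriptions. The deposited log10 ratio and the value table of the series were alternatives. This table equals the log10 ratio of processed signals, Nxn-null over wild type, for at least 99.995% of 40929 probes within 0.0001, with column medians of -0.0136 and 0.0408 for the E9.5 arrays and -0.0347 and 0.0210 for the E11.5 arrays. Further centring was therefore not found. The LogRatio column of the scanner files holds 0 for 21.3% to 29.9% of these probes where the table holds another value. No genome build is given in the sources used here, and no column was left unassigned to a sample.

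Here, mean signals were corrected by normexp with an offset of 50, loess was run within arrays with control spots at weight 0, and single channels were scaled by Aquantile (limma 3.58.1, R 4.3.3). Values of 1 probe were averaged, 302 probes with an outlier mark were left out, and 24985 of 41174 probes were kept, each well above background in 1 genotype at least on the paired arrays of a stage. Each gene was read from its brightest probe. Symbols were updated with a RefSeq table of GRCm38.p6, in which 22951 probes matched by accession, 6659 by current and 3109 by former symbol, and 8455 stayed under their file name. Ahsp was matched through the older name Eraf. Dye-swapped arrays were counted as 1 replicate. Limma tested the mean of 2 stages (residual degrees of freedom 1, prior 2.85), each stage and their difference over 4 arrays with a dye term, and the stage change over 2 genotypes, all with Benjamini-Hochberg adjustment at 0.05 over 17157 genes. SEs are moderated by limma. The number of arrays limits the precision. All 4 arrays are on 1 slide with 1 scan, so neither forms a batch. The fits were also run on simulated data with independent noise drawn from the fitted model. That run cannot test dependence between the paired arrays of a stage. The members and lists were chosen with earlier results of these data known. Genes named were all members, from each erythroid list the 4 lowest and the 1 highest by mean ratio, each tested gene of the chaperone list, and the 8 closest to the embryonic globins. Gata1 and single markers of other cell types were named besides. Figures were drawn with matplotlib 3.10.9.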

Additional observations from a re-analysis of the deposited data

Results flagged for a closer look

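The log2 ratio of Nxn-null over wild type differed between E11.5 and E9.5 for 4 globin genes by the limma contrast, and for each it was lower at E11.5. The difference was -1.36 for Hbb-b1, -0.67 for Hba-x, -0.53 for Hba-a1 and -0.41 for Hbb-bh1. For Hbb-b1 it was -0.64 with marked probes kept and -0.49 by A_51_P374468, the only Hbb-b1 probe read at low gain in no channel. For Hba-a1 it was -0.31 without E9.5 replicate 2 and -0.34 with median centring. For Hbb-bh1 it was -0.20 with median centring, -0.10 without E11.5 replicate 2 and -0.12 without E9.5 replicate 1. For Hba-x it was -0.36 without E9.5 replicate 2 and -0.99 without E9.5 replicate 1. At E9.5 the genotypes also differed in yolk sac markers, whose part in these differences between stages was not tested.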

How the results depend on the processing

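Across all alternatives, no ratio of the 5 globin genes changed sign at E11.5, in the shared effect or in the difference between stages. At E11.5 the ratio ranged from -1.62 to -1.19 for Hbb-y, -1.56 to -0.94 for Hbb-bh1, -1.06 to -0.77 for Hba-x, -1.19 to -0.88 for Hba-a1 and -1.44 to -0.96 for Hbb-b1. The difference between stages moved more, from -0.58 to -0.056 for Hbb-y, -0.72 to -0.099 for Hbb-bh1, -0.99 to -0.36 for Hba-x, -0.76 to -0.31 for Hba-a1 and -1.56 to -0.64 for Hbb-b1. Hba-x at E9.5 ranged from -0.66 to -0.03. Globin genes at least 2-fold lower at E11.5 numbered 5, against 2 with median centring. Hbb-b1 at E9.5 turned to -0.81 with marked probes kept, since another probe then stood for it, and lay between -0.14 and 0.26 with 1 array left out (-0.14 without E9.5 replicate 2). The stage change of Hbb-bh1 turned to -0.094 with the processed signals of Feature Extraction and -0.0045 with quantile scaling, and lay between -0.077 and 0.23 with 1 array left out (-0.023 without E9.5 replicate 2). Genes called at E9.5 numbered 4231, against 1530 with the log ratio of Feature Extraction, 1402 with the value table, 680 with median centring, 460 without the dye term and 266 to 479 with 1 array left out. At E11.5 they numbered 1597, against 168, 44, 220, 28 and 16 to 144 in the same order. For the difference between stages they numbered 2325, against 573, 467, 403, 150 and 105 to 225. For the shared effect they numbered 0, against 45 with 4 arrays as separate measurements, among them 1 globin gene. Globin genes called lower at E9.5 numbered 4, against 2 with the log ratio of Feature Extraction, 2 with the value table, 1 without the dye term and 2 with any 1 array left out. At E11.5 they numbered 5, against 2, 1, 1 and 1 to 5. For the difference they numbered 4, against 1, 1, 1 and 0 to 2, and 1 with median centring. Erythroid list genes called lower at E9.5 numbered 26, against 16 with the log ratio of Feature Extraction, 15 with the value table, 10 with median centring, 9 without the dye term and 2 to 10 with 1 array left out. At E11.5 they numbered 32, against 9, 1, 12, 3 and 1 to 12. Their median moved to -0.11 at E9.5 and -0.16 at E11.5 with median centring, and lay between -0.20 and -0.18 at E9.5 and between -0.37 and -0.26 at E11.5 with 1 array left out. With 1 array left out the dye term could not be fitted, and a stage then rests on 1 array. Other causes were not tested. Loess without the globin probes, marked probes kept, every kept probe as a row of its own and the value table were added after the data were seen.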

Other observations

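The probe A_52_P33382, which the files name LOC383229 and describe as similar to an alpha hemoglobin subunit, was looked at after its values were seen. Its log2 ratio was -0.66 and -0.51 on the E9.5 arrays and -0.82 and -0.80 on the E11.5 arrays, so it was lower in Nxn-null embryos on all 4 arrays. Whether it detects RNA of its own or that of the alpha genes was not tested.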
